A study of Mus musculus with 9 samples.

Results

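The cytosolic ribosomal protein genes were followed across 3 subsets of mouse splenic B cells, follicular (FO), IgD low/- follicular (BDL) and marginal zone (MZ) B cells. Members were chosen by gene symbol, as Rpl or Rps followed by a number or as Rpsa, Fau, Rplp0, Rplp1 or Rplp2, and by an average level of 0.5 FPKM or more across all libraries, with pseudogenes and the Rps6k kinases left out. Of the 85 symbols that match, 81 passed the minimum, out of 24459 rows in the table and 11597 rows at or above the same minimum. They comprised 45 core proteins of the large subunit, 32 of the small subunit and 4 paralogues or relatives (Rpl22l1, Rpl7l1, Rps27l and Rps4l). The 4 symbols below the minimum were Rpl10l, which was listed at 0 in every library, Rpl39l, Rpl3l and Rpl26.

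RNA was sequenced from 9 libraries, 3 of each subset. Each library came from sorted spleen cells pooled from 5 naive, untreated mice of 8 to 10 weeks. The subsets share dates in their sample titles, and whether libraries of a date came from the same pool is not known here. FO and BDL cells were gated as B220+IgMintCD21intCD23+CD93- and differed in IgD, high on FO and low or absent on BDL cells, and MZ cells were gated as B220+IgMhiCD21hiCD23-CD93-. B cells were enriched by magnetic negative selection before the sort. The labels name the strain C57/BL6, whereas the study describes the mice of its RNA-seq as B10.PL, so the strain is uncertain. A library of pooled cells is the unit of replication, so the spread between mice was not measured.

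The ribosome is built from a small subunit, which reads the mRNA, and a large subunit, which joins the amino acids, and each of its proteins is made from its own gene. The mRNAs of these genes are among the most abundant of any growing cell and begin with a short pyrimidine tract, the terminal oligopyrimidine (TOP) motif, through which mTORC1 and the protein LARP1 control their translation. The transcription factor MYC raises the output of ribosomal genes in B cells, and surplus RPL5 and RPL11, which bind the small 5S ribosomal RNA, restrain MDM2 and so stabilise p53.

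The start of the gene is shown for a selection of the members named here, since a pyrimidine tract there is a sequence that many members share. The selection was not random and includes Rps6, which was called in no comparison. How common the tract is can be read only from the shares that follow. RefSeq start sites on GRCm38.p6 matched 60 of the 81 members. A run of at least 8 C or T bases, in the window from 20 bases before to 30 after the start, was present in 34 of the 60 (56.7%), against 21.8% of all tested symbols with a RefSeq promoter. The heptamer CCGGAAG, on either strand within 250 bases before to 50 after the start, was present in 24 of the 60 (40.0%), against 22.0% of tested symbols. TATAAA within 50 bases before the start was present in 1 member. The 30 bases around each start are given 5′ to 3′, with the longest run of C and T within those 30 bases in capitals. The printed run is 7 bases in Rps12, whose run goes on to 11 beyond the stretch shown, and 5 bases in Rplp0, which has no run of 8 in the wider window. A match is a description of these letters and not a mapped start of the B cell mRNA.
Rpl27a, chr7:109519180-109519209, plus strand: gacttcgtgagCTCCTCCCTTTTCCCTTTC
Rpl15, chr14:18270972-18271001, minus strand: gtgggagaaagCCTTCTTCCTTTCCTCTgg
Fau, chr19:6057932-6057961, plus strand: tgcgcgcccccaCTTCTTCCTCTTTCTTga
Rps18, chr17:33955651-33955680, minus strand: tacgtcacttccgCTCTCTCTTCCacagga
Rpl22l1, chr3:28805493-28805522, plus strand: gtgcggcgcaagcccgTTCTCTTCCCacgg
Rps6, chr4:86857353-86857382, minus strand: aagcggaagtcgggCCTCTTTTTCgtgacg
Rps26, chr10:128626492-128626521, minus strand: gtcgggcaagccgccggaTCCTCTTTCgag
Rps12, chr10:23787195-23787224, minus strand: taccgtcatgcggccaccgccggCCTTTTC
Rplp0, chr5:115559452-115559481, plus strand: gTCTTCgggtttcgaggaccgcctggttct

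Several members share their reads with a near-identical copy elsewhere in the genome, and this set which values could be read. Copies were sought on the mouse genome NCBIM37 (mm9) with GENCODE M1, as rows of the table whose transcript holds at least 90% of a member's coding sequence at 95% identity or more. Rps27, which encodes a zinc-binding protein of the small subunit, lies on chromosome 3 (coding span 90016650 to 90017537, minus strand), and its intronless copy Rps27rt lies on chromosome 9 (114891574 to 114891825, minus strand). Their coding sequences are the same over all 252 bases, so a read inside them cannot be assigned to either gene. The shared sequence is shown because it carries the widest swings of the family.
Rps27 and Rps27rt: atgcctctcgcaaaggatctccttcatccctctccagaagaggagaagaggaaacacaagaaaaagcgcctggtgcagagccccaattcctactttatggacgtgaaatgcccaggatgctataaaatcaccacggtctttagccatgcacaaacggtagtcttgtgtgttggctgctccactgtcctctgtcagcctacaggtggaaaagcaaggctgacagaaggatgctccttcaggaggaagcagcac

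The FPKM listed for Rps27 was 473, 1736 and 16.6 in FO replicates 1 to 3. In BDL it was 2267, 9.81 and 3662, and in MZ 2890, 5641 and 2802. Those of Rps27rt ran the other way, at 5953, 4767 and 5901 in FO, 3363, 5752 and 1565 in BDL and 3418, 3008 and 3353 in MZ. The sum of the pair was far steadier, at 6283 ± 318 FPKM (SD, n = 3) in FO, 5540 ± 279 in BDL and 7037 ± 1398 in MZ. Taken alone, Rps27 differed by 3.90 on the log2 scale between MZ and FO, with a standard error of 2.38 (adjusted p = 0.278). As a sum with Rps27rt the difference was 0.15 ± 0.17 (SE, adjusted p = 0.588). Rps27 was the only member with a difference of 2-fold or more in any comparison, and it was called in none.

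Another 3 genes of the large subunit were listed almost wholly under a processed pseudogene. Rpl26 had a mean of 0.157 FPKM, with 1.41 in MZ replicate 1 and values near 0 in the other 8 libraries, whereas its copy Gm15772 had a mean of 1588. Rpl30 stood at 13.3 FPKM and its copy Gm12191 at 1573, and Rpl34 at 19.1 and its copy Rpl34-ps1 at 1682. The coding sequences of these pairs differ at 1 or 2 bases, none of which changes the encoded protein. The differences are C177T and T288C for Rpl26, G96A for Rpl30 and T132C and C318G for Rpl34, with the gene's base first, the position counted from the first base of the start codon, and the copy's base last. A stretch around the only difference between Rpl30 and Gm12191 is shown, with the differing base in capitals.
Rpl30: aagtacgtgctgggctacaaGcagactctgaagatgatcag
Gm12191: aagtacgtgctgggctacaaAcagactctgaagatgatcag

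**Figure D1:**
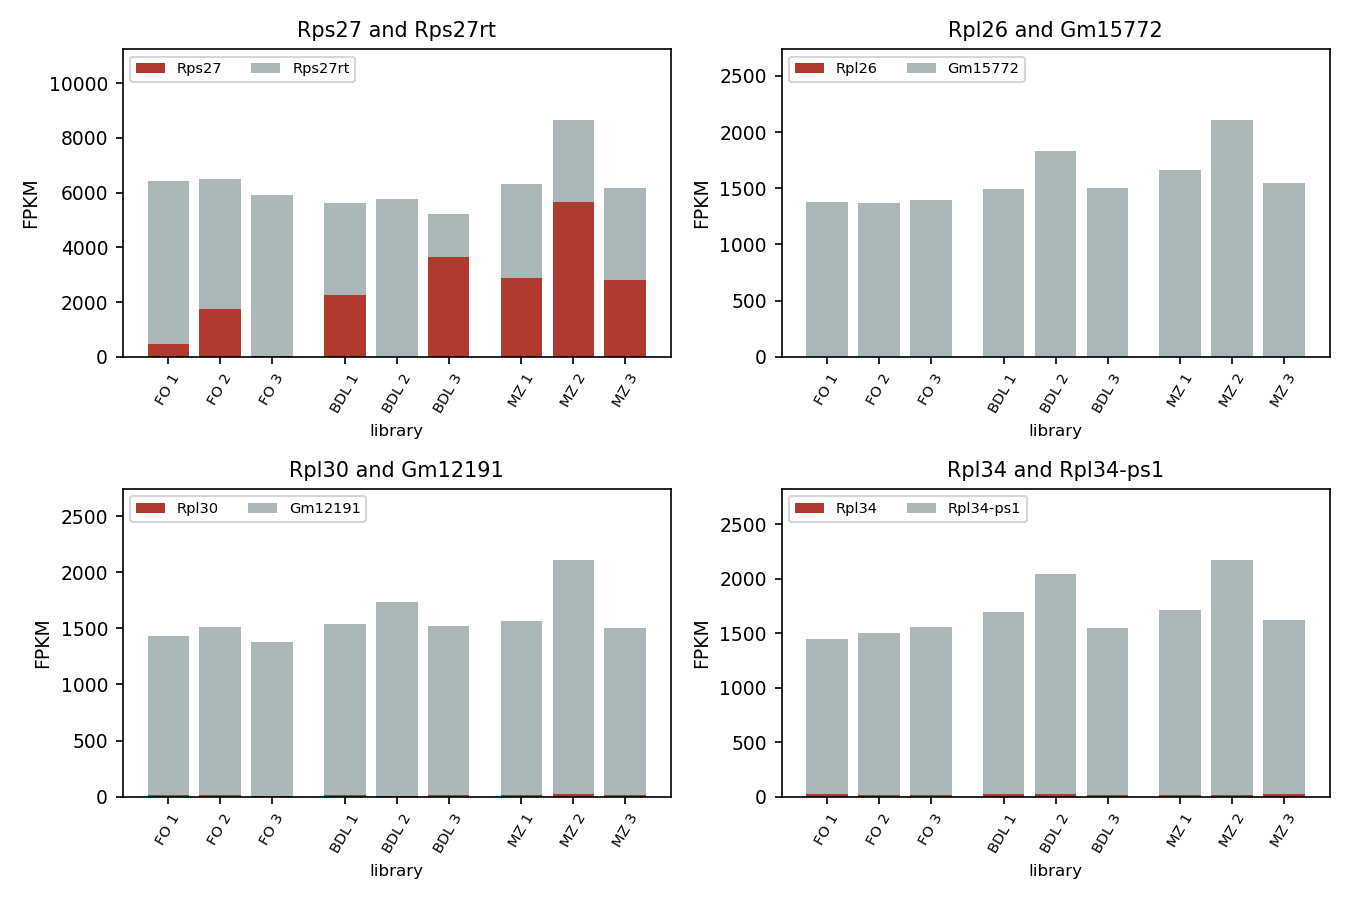
FPKM of 4 ribosomal protein genes (red) and of a near-identical copy (grey), stacked for each of the 9 libraries on linear axes. The red part of Rps27 runs from 9.81 to 5641 FPKM while the sum with Rps27rt stays between 5227 and 8649, and almost no signal is listed under Rpl26, Rpl30 or Rpl34 themselves.

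For Rpl30, Rpl34 and Rpl26, the amount of mRNA therefore cannot be told apart from how the reads were placed. Rps4l was the member just inside the minimum, at a mean of 2.96 FPKM, and Rpl26 was the symbol nearest below it. Other members with such a copy on a row of its own were Rpl14, Rpl22l1, Rpl29, Rpl31, Rpl36a, Rpl37, Rplp2, Rps15a and Rps26. After every member was summed with its copies, the number called was 1, 2 and 27 in the 3 comparisons, the same genes as without the sums.

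Ribosomal protein mRNAs were at the top of the table in every subset. The median member had a mean of 1181 FPKM, against 9.74 for all tested rows, and 53 of the 100 rows with the highest means were members. Rplp1, an acidic protein of the ribosomal stalk that recruits elongation factors, had the highest listed mean, at 2759 FPKM. It was followed by Rps29 (2467), Rpl38 (2376), Rps27 (2166) and Rps12 (2062). The sum of Rps27 and Rps27rt had a mean of 6286.5, above Rplp1, so the place of Rps27 depends on how its reads were placed. At the other end, apart from Rpl30 and Rpl34, were Rps27l at 40.4 FPKM, Rpl7l1 at 23.0 and Rps4l at 2.96. FPKM is a level per transcript length, so these values can be set beside each other, though for mRNAs this short they also depend on how fragment length was modelled.

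The libraries did not all behave alike, and this bears on every comparison. In BDL replicate 2, 76 of the 81 members lay above the mean of the other BDL libraries, by a median of 0.32 on the log2 scale. In MZ replicate 2, 80 of 81 did, by a median of 0.39. These libraries share a date in their sample titles with FO replicate 2, where the median was -0.01. Other rows with transcripts under 1000 nt and means of at least 100 FPKM moved by 0.14 in BDL replicate 2 and 0.31 in MZ replicate 2, and all tested rows by 0.02 and 0.12. Results are therefore also given without these 2 libraries, an option chosen after the values were seen. They were picked because the members deviated in them, so the spread of the members falls by that choice. Calls made without them are therefore not independent support for the main calls.

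Summed over the members, ribosomal protein mRNAs took a larger share of the FPKM in MZ than in FO cells, with BDL between. The share of the library sum was 16.9%, 17.0% and 17.7% in the FO libraries. It was 18.7%, 22.0% and 18.5% in BDL and 20.9%, 24.7% and 19.5% in MZ. The 3 FO libraries lay below all 6 others, and BDL and MZ overlapped. Means were 17.2% ± 0.474 (SD, n = 3), 19.7% ± 1.98 and 21.7% ± 2.70. Because the split of Rps27 enters this sum, the share was also taken with all copies, Rpl26, Rpl36al and Gnb2l1 included. It was then 19.6%, 19.4% and 20.5% in FO, 20.9%, 24.95% and 20.3% in BDL and 23.2%, 27.1% and 21.6% in MZ, so that FO and BDL overlapped and FO and MZ did not. The large subunit contributed 8.92% in FO and 11.1% in MZ, and the small subunit 8.24% and 10.5%. No test was made on these sums, and in sorted bulk RNA more cells of one kind and more RNA per cell cannot be told apart.

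**Figure D2:**
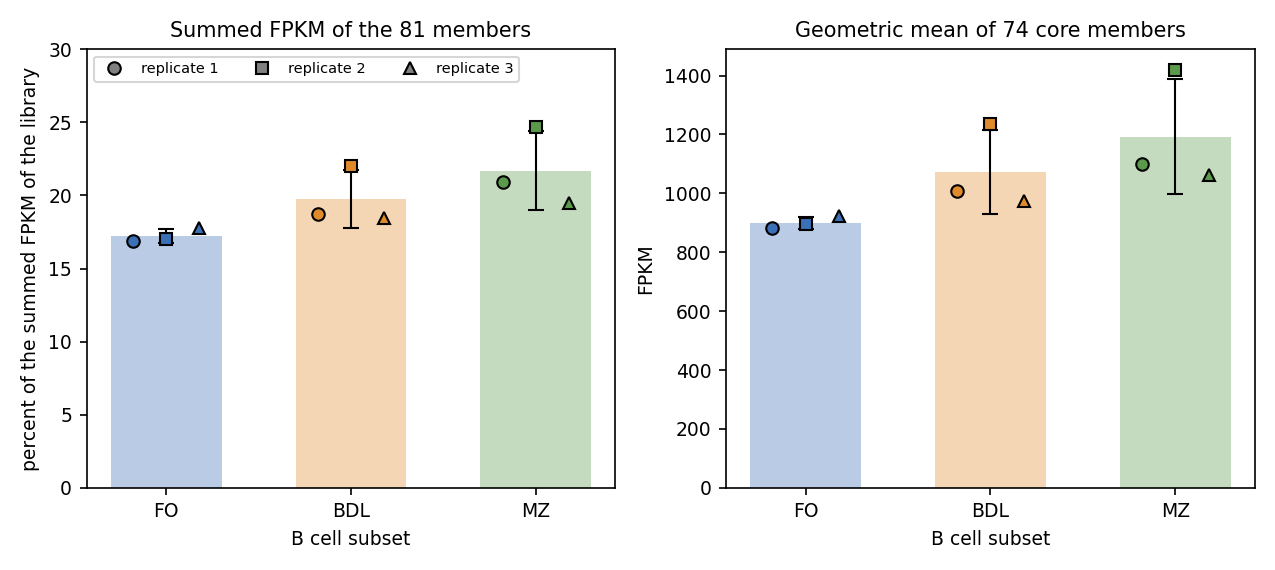
Left, summed FPKM of the 81 members as a percent of each library's summed FPKM; right, geometric mean FPKM of 74 core members (without Rpl30, Rpl34 and Rps27). Points are libraries with the symbol giving the replicate number, bars are means and error bars SD (n = 3); FO libraries sit at 16.9% to 17.7%, and replicate 2 is the highest point of BDL (22.0%) and MZ (24.7%).

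Group means rose from FO through BDL to MZ in most members. Mean FPKM was ordered FO below BDL below MZ for 72 of the 81, an order found in 18.9% of all tested rows. Among the 72 was Rps27, though its sum with Rps27rt was lowest in BDL. The size of the step from BDL to MZ varied with the replicate 2 libraries. Without MZ replicate 2 alone the median BDL minus MZ difference was -0.01, with 43 of 81 members below 0. Without both BDL replicate 2 and MZ replicate 2 it was -0.12, with 68 of 81 members below 0. It was the same without replicate 2 of all 3 subsets. For another 8 members BDL had the highest mean and FO the lowest, and for 1, Fau, BDL was the lowest. The comparisons below share their libraries and are therefore not independent of each other.

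BDL against FO asks how the IgD low/- cells differ from the follicular cells they share a gate with. Of the 81 members, 80 had a higher mean log2 level in BDL, with a median difference of 0.27 on the log2 scale (1.20-fold, with the quartiles at 0.17 and 0.31). The median over all tested rows was 0.05. Among the 80 was Rps27, whose sum with Rps27rt was lower in BDL than in FO (-0.18 ± 0.17, SE, adjusted p = 0.543). With members summed with their copies, 79 of 81 were higher in BDL. Only Rps27l passed the test at an adjusted p under 0.05, while 6.04% of all rows tested were called higher in BDL and 1.68% lower, and 0 members but 1.91% of all rows were called at 2-fold or more. An unadjusted p under 0.05 was reached by 15 members, a count without a share of all rows at that threshold to set beside it. In 44 members the 3 BDL libraries all lay above the 3 FO libraries and in 0 members below, against 24.4% of all rows above and 10.3% below.

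Rps27l, a p53-inducible relative of Rps27, rose in BDL. It was listed at 30.5, 32.0 and 29.5 FPKM in FO, 45.7, 53.1 and 41.2 in BDL and 42.1, 49.8 and 39.6 in MZ. FO libraries were all below the other 6, and BDL and MZ overlapped. The BDL minus FO difference was 0.60 ± 0.12 on the log2 scale (SE, adjusted p = 0.0232), and it was 0.50 without the 2 libraries named above (adjusted p = 0.00958). The call was lost when FO replicate 1, 2 or 3 or BDL replicate 1 was left out, with an adjusted p of at most 0.0908.

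The remaining members differed by less than the fit could call. Differences in the core genes ran from -0.03 in Fau, a fusion of a ubiquitin-like protein with a small-subunit protein, to 0.48 in Rplp0, the base of the stalk, leaving Rps27 aside. The typical standard error was 0.16. With the date in the titles as a block in the fit, Rpl10a, Rpl15 and Rps26 were called higher as well, which made 4 in all, 4.94% of the members beside 15.6% of all rows called higher in that fit. Without BDL replicate 2 and MZ replicate 2 the median difference fell to 0.15 and 12 members were called, among them Rpl22, Rpl22l1, Rpl3 and Rpl36a. This was 14.8% of the members, near the 11.6% of all rows. Without all 3 libraries of that date the count was 2, Rpl15 and Rps27l, beside 5.98% of all rows. Without MZ replicate 2 alone it was 4, which is 4.94% of the members beside 7.61% of all rows. The same-date pairs gave medians of 0.21, 0.47 and 0.09 for replicates 1 to 3. Erythroid markers (3 of 9 listed above the minimum) moved with this comparison, with a summed level of 18.2 to 20.1 FPKM in BDL against 4.14 to 7.78 in FO, as did T cell markers (1 of 8 above the minimum, 19.1 to 23.8 against 9.79 to 11.3), and their part in the result was not tested. Of 5 myeloid markers above the minimum 2 were called higher in BDL, at summed levels of 6.27 to 12.6 against 2.69 to 9.50 in FO, and 1 of 5 plasma cell markers was called higher, at 128 to 207 against 186 to 223. Of 8 MZ markers 5 were called higher in BDL, while their summed level was 192 to 204 in BDL and 203 to 212 in FO. The part of these markers was not tested either.

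BDL against MZ contrasts the IgD low/- cells with the innate-like cells of the marginal zone. The differences were the smallest of the 3, with 73 of 81 members lower in BDL and a median BDL minus MZ difference of -0.13. All rows together had a median of 0.06. Members called lower numbered 2, Rpl22l1 and Rpl37a, against 11.6% of all rows called lower and 16.5% higher, and 0 members but 7.8% of all rows were called at 2-fold or more. An unadjusted p under 0.05 was reached by 8, again without a share of all rows at that threshold. In 14 members every BDL library was below every MZ library and in 0 above, against 16.4% and 22.6% of all rows. The median was -0.01 without MZ replicate 2, with 43 of 81 members below 0, and -0.25 without BDL replicate 2. It was -0.12 without both, and the same without all 3 libraries of that date, and the same-date pairs gave -0.12, -0.18 and -0.12. MZ markers (8 of 8 called lower in BDL) had a summed level of 192 to 204 FPKM in BDL against 1082 to 1290 in MZ. Plasma cell markers were also lower, at 128 to 207 in BDL against 224 to 296 in MZ, with 2 of 5 called lower in BDL and 1 higher. Erythroid markers moved the other way, at 18.2 to 20.1 in BDL against 6.05 to 10.2 in MZ, as did T cell markers, at 19.1 to 23.8 against 7.66 to 13.4. Of FO markers 4 of 4, and of myeloid markers 1 of 5, were called higher in BDL, and 1 of 3 NK cell markers was called lower. The part of these markers was not tested.

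Rpl37a, a small zinc-binding protein of the large subunit, was listed at 1021, 980 and 949 FPKM in BDL, 1227, 1603 and 1243 in MZ and 1031, 1036 and 865 in FO. MZ stood above both other subsets with no overlap, and FO and BDL overlapped. Its BDL minus MZ difference was -0.45 ± 0.14 (SE, adjusted p = 0.0473), and -0.33 without the 2 libraries (adjusted p = 0.0645). The call was lost in 16 of 26 alternatives, with an adjusted p of at most 0.137, among them each of the 9 that left out 1 library. With the date as a block, Rplp1, Rps18 and Rps21 were called lower too, 5 in all, which is 6.17% of the members beside 16.5% of all rows. Without BDL replicate 2 and MZ replicate 2, 10 were called lower, including Rplp0, Rplp1, Rps12 and Rpsa, and this 12.3% of the members was close to the 13.2% of all rows. Without all 3 libraries of that date Rpl22l1 was the only call, beside 11.4% of all rows.

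FO against MZ, the established comparison of mature splenic B cells, gave the widest shift. Of the 81 members, 80 were lower in FO, and the median MZ minus FO difference was 0.38 on the log2 scale (1.301-fold, with the quartiles at 0.30 and 0.51), while all tested rows had a FO minus MZ median of 0.01. There were 27 members called lower in FO and 0 called higher, which is 33.3% of the members, beside 14.3% of all tested rows called lower and 12.8% higher. An unadjusted p under 0.05 was reached by 42. The shares of all rows given here are for the adjusted p and cannot be set beside that count. None of the 27 reached a 2-fold change, whereas 8.92% of all rows were called at 2-fold in either direction. In 68 members the FO libraries all lay below the MZ libraries, and in 0 above, against 23.6% and 22.5% of all rows.

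The calls fell on both subunits and on the paralogues, with 17 of 45 large-subunit genes, 7 of 32 small-subunit genes and 3 of 4 paralogues. Median MZ minus FO differences of the large and small subunit were 0.37 and 0.37. Among the 27, the differences ran from 0.28 in Rpl7l1 to 0.79 in Rplp1. The count moved widely with the libraries used. Without FO replicate 1, 2 or 3 it was 6, 6 and 10, which is 7.41%, 7.41% and 12.3% of the members beside 10.3%, 10.2% and 11.6% of all rows, near the background. It was 15 without BDL replicate 1 or MZ replicate 2 (18.5% of the members beside 13.2% and 11.9% of all rows). Without MZ replicate 1 it was 17 (21.0% beside 11.4%). With no minimum level it was 9, with quantile normalization 13, and with the 6 libraries of FO and MZ alone 14. With the date as a block 36 were called, which included all 27 (44.4% of the members beside 19.7% of all rows). Without BDL replicate 2 and MZ replicate 2, 40 were called, again including all 27 (49.4% beside 19.0%), and the median difference was -0.26 (FO minus MZ). When all 3 libraries of that date were left out, 26 were called (32.1% beside 15.0%), 23 of them shared. Medians of the same-date pairs were -0.32, -0.65 and -0.19 (FO minus MZ) for replicates 1 to 3. MZ markers (8 of 8 called) moved with this comparison, at a summed level of 1082 to 1290 FPKM in MZ against 203 to 212 in FO. Plasma cell markers summed to 224 to 296 in MZ against 186 to 223 in FO, with 1 of 5 called lower in FO and 1 higher. Of 5 myeloid and 3 NK cell markers, 1 each was called lower in FO and 0 higher. FO markers were called higher in FO in 4 of 4. The part of these markers in the result was not tested.

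**Figure D3:**
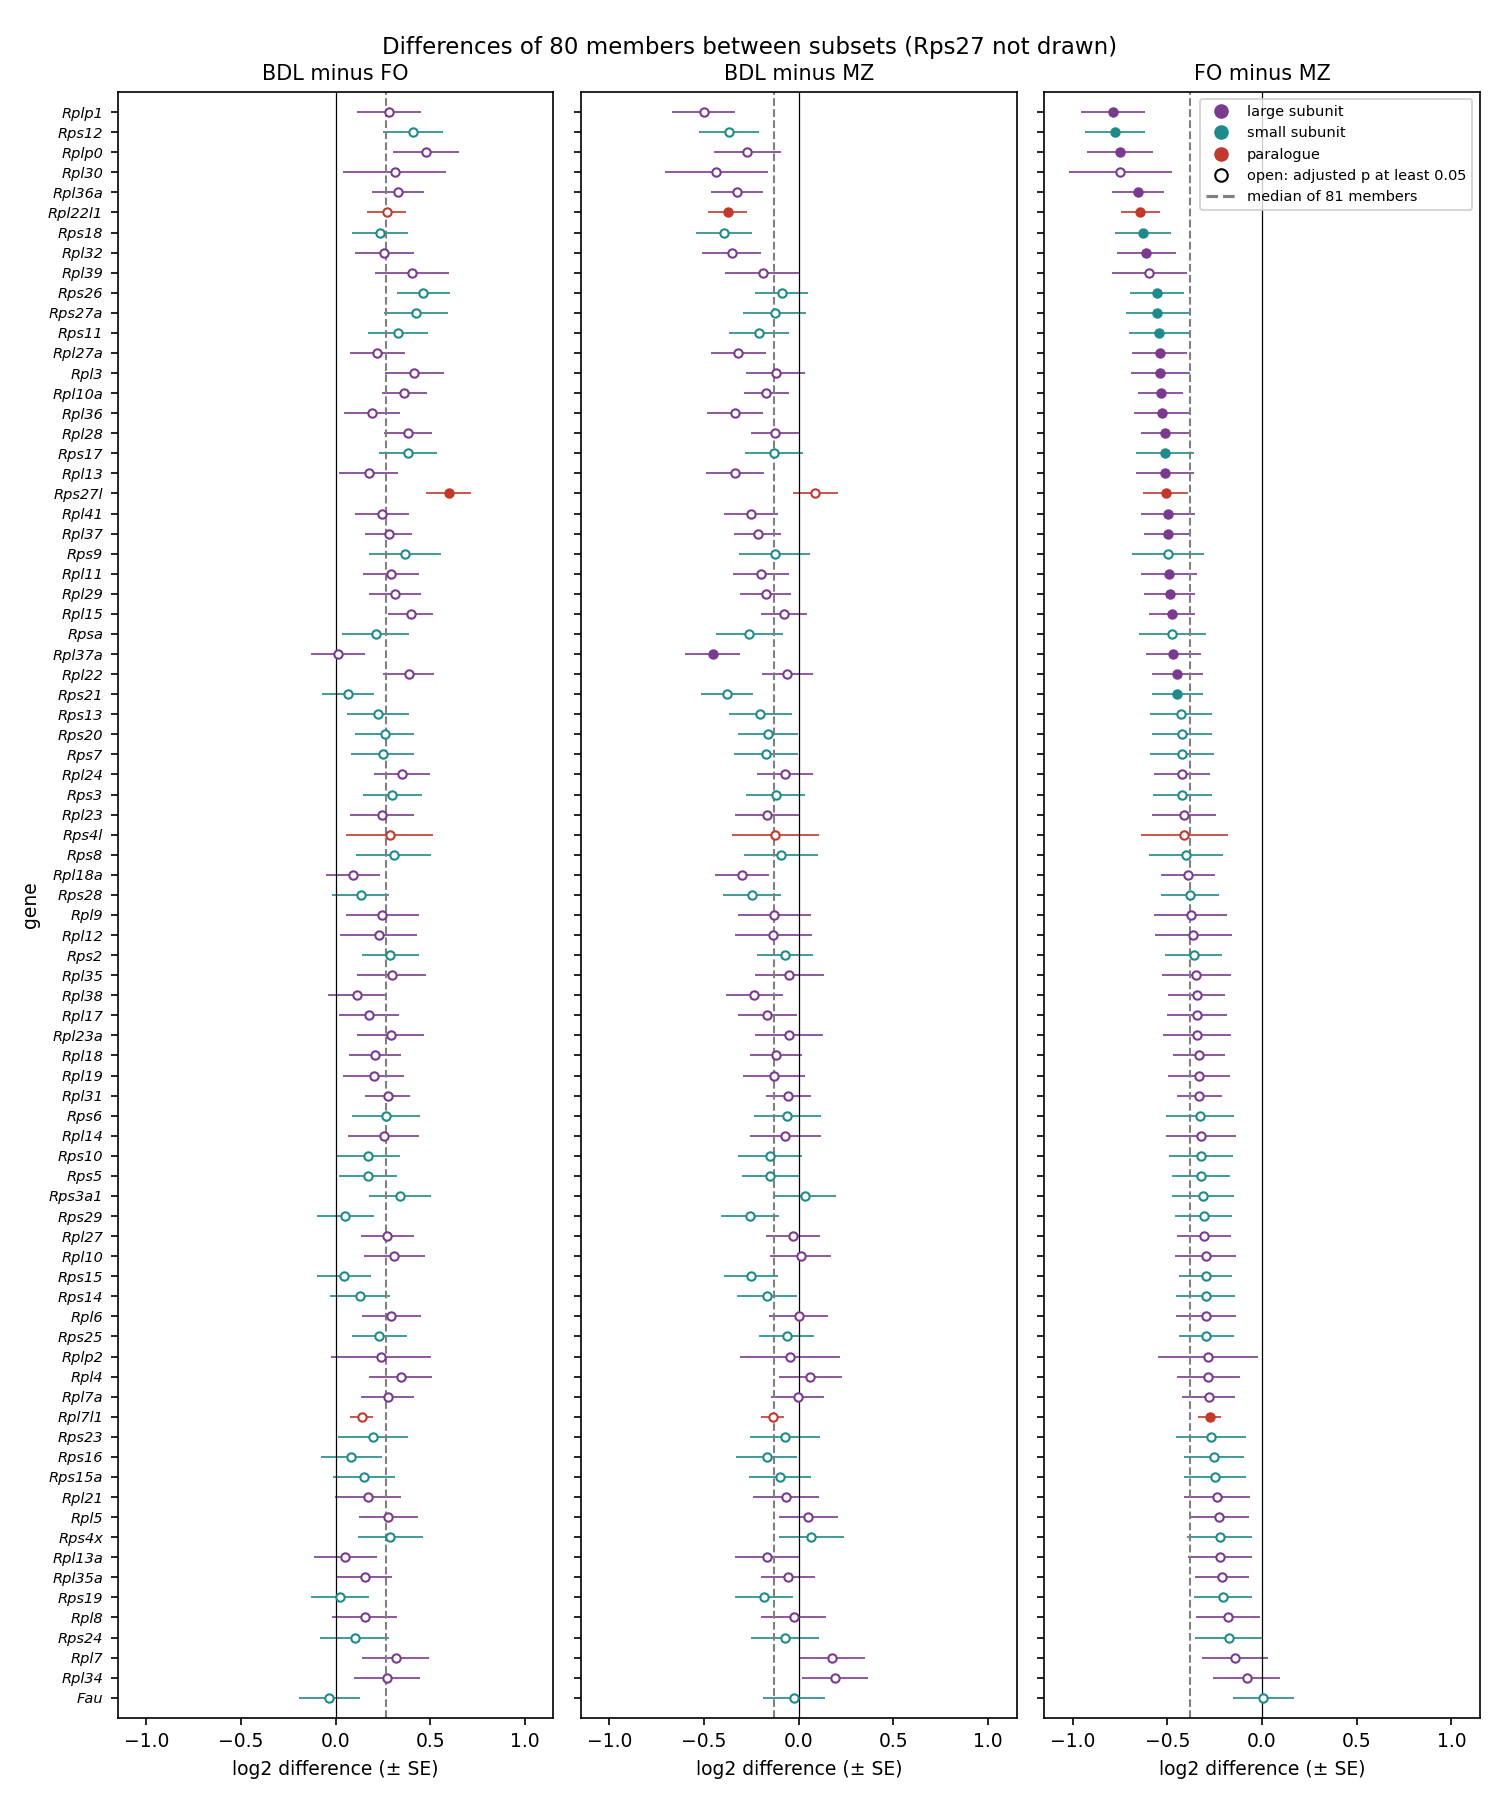
Log2 differences of log2(FPKM + 0.1) between subsets for 80 members (Rps27 left out), with standard errors from the fit; filled points have an adjusted p under 0.05, colours give the subunit, and the dashed line is the median of the members. Filled points number 1, 2 and 27 from left to right, and the medians lie at 0.27, -0.13 and -0.38.

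The stalk proteins extend from the large subunit and activate the translational GTPases. They showed the largest change between FO and MZ apart from Rps27, and also some of the least certain changes. Rplp1 was listed at 2084, 2033 and 2145 FPKM in FO, 2558, 2886 and 2220 in BDL and 3367, 4360 and 3175 in MZ. All MZ values were above all BDL values, and those above all FO values. The MZ minus FO difference was 0.79 ± 0.17 (SE, adjusted p = 0.00954). Rplp0 stood at 762, 746 and 861 in FO, 1016, 1363 and 956 in BDL and 1240, 1570 and 1194 in MZ, a MZ minus FO difference of 0.75 ± 0.17 (adjusted p = 0.0143). FO was again separate and BDL and MZ overlapped. For Rplp2, the partner of Rplp1, the libraries ranged from 1107 to 1630 in FO, 1285 to 2158 in BDL and 1379 to 2050 in MZ, and the difference of 0.29 ± 0.26 was not called (adjusted p = 0.479). Rpl12, at the stalk base, had a difference of 0.36 ± 0.20 (adjusted p = 0.238).

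Of the small subunit, leaving Rps27 aside, Rps12 changed most between FO and MZ. Its level was 1466, 1504 and 1602 FPKM in FO, 1969, 2290 and 1827 in BDL and 2455, 3129 and 2316 in MZ, in 3 groups that did not overlap. The MZ minus FO difference was 0.78 ± 0.16 (SE, adjusted p = 0.0075). Rps18, of the subunit head, rose by 0.63 ± 0.15 (adjusted p = 0.015) and Rps26, of the mRNA exit channel, by 0.55 ± 0.14 (adjusted p = 0.021). Rps6, the substrate of the S6 kinases, had a difference of 0.33 ± 0.18 (adjusted p = 0.223), and Rpsa, also known as the laminin receptor, one of 0.47 ± 0.18 (adjusted p = 0.0861). Rps19, the gene most often mutated in Diamond-Blackfan anaemia, differed by 0.21 ± 0.15 (adjusted p = 0.375). Of 23 tested genes linked to that anaemia, 4 were called lower in FO and 0 higher (17.4% beside 14.3% of all rows), with a median FO minus MZ difference of -0.33, near that of the whole family.

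Fau was the one member whose mean log2 level was not lower in FO than in MZ. Its FPKM was 1513, 1505 and 1503 in FO, 1417, 1736 and 1299 in BDL and 1376, 1802 and 1357 in MZ. The MZ minus FO difference was -0.01 ± 0.16 (adjusted p = 0.985). BDL and MZ libraries lay on either side of the FO libraries.

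The proteins that carry the 5S ribosomal RNA differed in their call. Rpl11 was listed at 965, 978 and 1010 FPKM in FO, 1125, 1364 and 1144 in BDL and 1295, 1657 and 1236 in MZ, with a MZ minus FO difference of 0.49 ± 0.15 (adjusted p = 0.0394). Rpl5 was listed at 476, 493 and 497 in FO, 545, 703 and 542 in BDL and 533, 693 and 505 in MZ, and its difference of 0.23 ± 0.16 was not called (adjusted p = 0.339). The difference between these genes was not tested.

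Some paralogues can take the place of a core protein in the ribosome, and 3 of the 4 rose from FO to MZ. Rpl22l1, whose product replaces and is repressed by that of Rpl22, was listed at 164, 172 and 173 FPKM in FO, 193, 225 and 197 in BDL and 254, 294 and 250 in MZ. The 3 groups did not overlap. Its MZ minus FO difference was 0.64 ± 0.10 (SE, adjusted p = 0.0022), and its BDL minus MZ difference -0.37 ± 0.10 (adjusted p = 0.0279), a call that was lost in 4 of 26 alternatives (adjusted p of at most 0.0838). Rpl22 itself, required for the development of lymphocytes, was listed at 93.7, 96.1 and 103 in FO, 120, 149 and 116 in BDL and 127, 156 and 118 in MZ, a MZ minus FO difference of 0.45 ± 0.14 (adjusted p = 0.0416) with BDL and MZ overlapping.

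Rpl7l1, a nucleolar factor of large-subunit assembly related to Rpl7, had the smallest spread, at 20.8 ± 0.526 FPKM (SD, n = 3) in FO, 22.9 ± 0.379 in BDL and 25.2 ± 0.599 in MZ. Its MZ minus FO difference was 0.28 ± 0.06 (adjusted p = 0.0116), and Rpl7 had one of 0.14 ± 0.18 (adjusted p = 0.606). Rps4l was at 2.08 to 4.02 FPKM over the 9 libraries beside 1540 to 2311 for Rps4x, and neither was called in any comparison. Rpl3, whose relative Rpl3l is a muscle gene, and Rpl36a were higher in MZ by 0.54 ± 0.16 (adjusted p = 0.035) and 0.65 ± 0.14 (adjusted p = 0.00908). Rpl10 and Rpl39 were not called, at 0.30 ± 0.16 (adjusted p = 0.221) and 0.59 ± 0.20 (adjusted p = 0.0568).

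**Figure D4:**
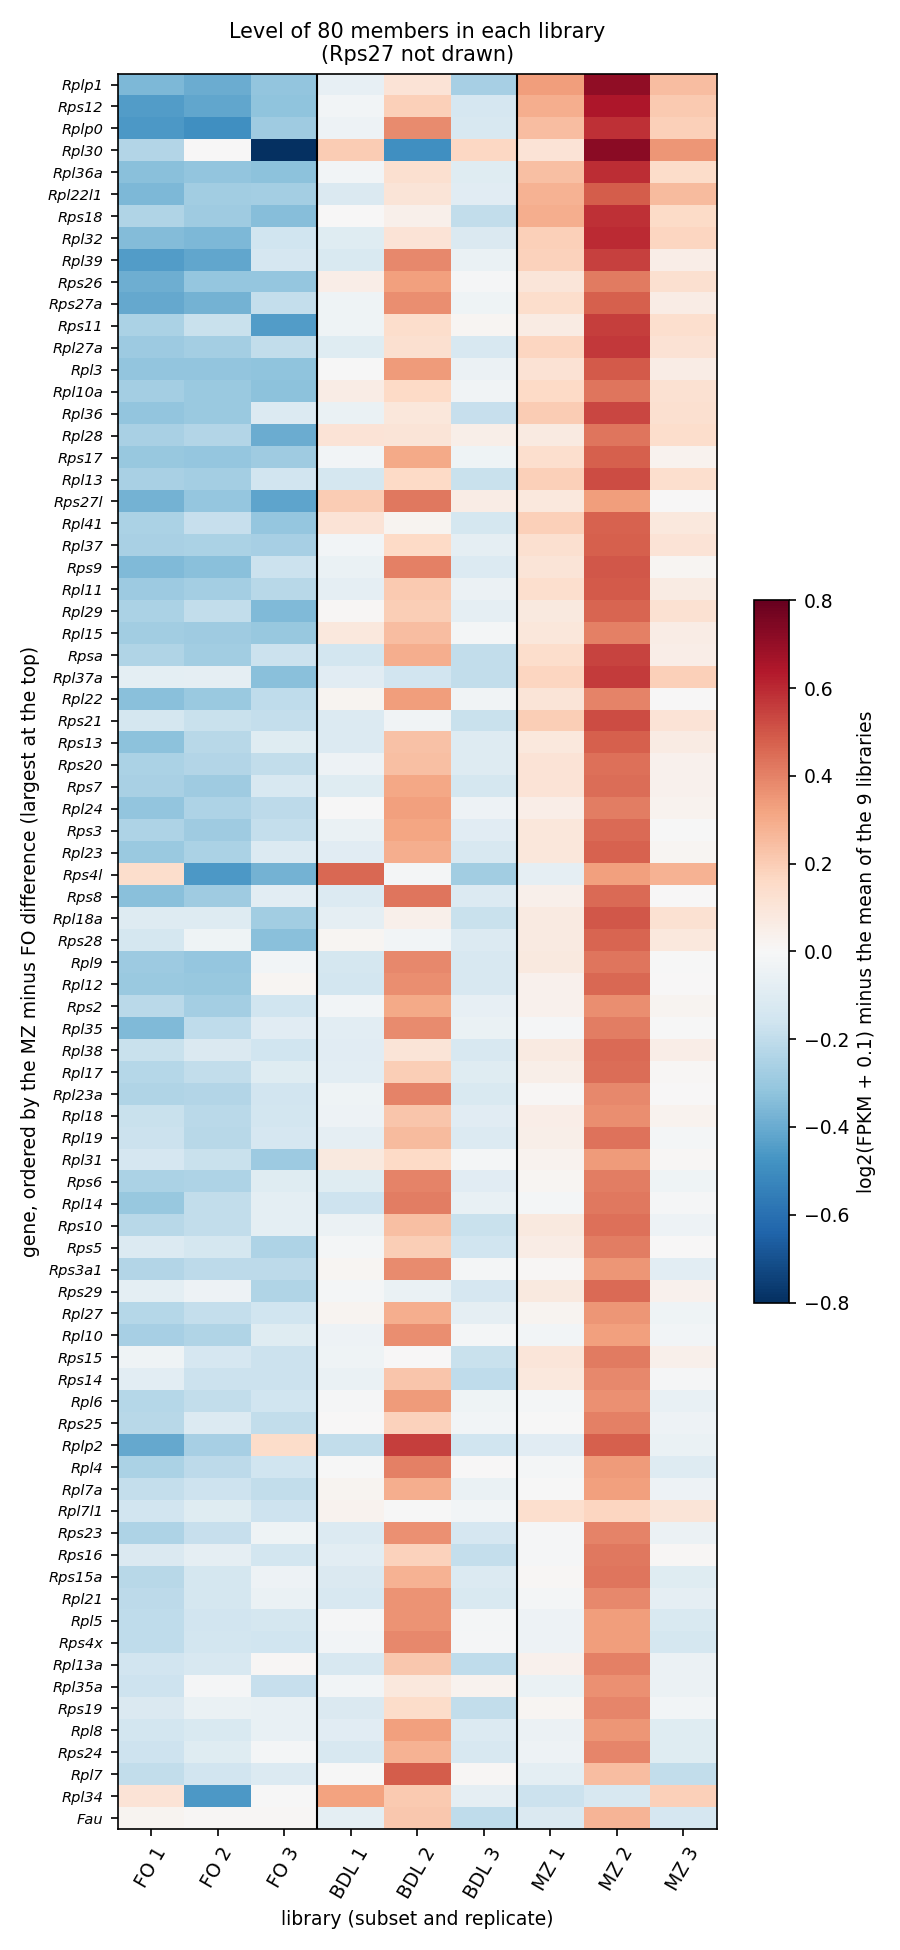
Level of 80 members (rows, ordered by the MZ minus FO difference; Rps27 left out) in the 9 libraries (columns), as log2(FPKM + 0.1) minus the gene's mean, with red above and blue below. FO columns are mostly blue and MZ columns mostly red, and the columns of BDL replicate 2 and MZ replicate 2 are the reddest of their subsets (medians of 0.32 and 0.39 above the other libraries).

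Since nearly all members moved together, each library was also divided by the geometric mean of 74 core members, all but Rpl30, Rpl34 and Rps27, to ask which genes shifted within the family. This scaling, chosen after the values were seen, makes each difference relative to the other members, and it moves the median of all tested rows by -0.24 in BDL minus FO, 0.15 in BDL minus MZ and 0.39 in FO minus MZ. Standard errors fell to about 0.05 for many members. The fall follows from the scaling, which takes out the shift that the members share within a library. Adjusted p-values on this scale therefore cannot be set beside those of the main fit. Between FO and MZ, 10 members were called relatively lower in FO and 8 relatively higher, beside 6.81% and 42.6% of all rows. With so many rows called, the adjusted threshold is also easier for each member to pass. Most members stayed close to the family, with 72 of 81 within 0.25 on the log2 scale.

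Rplp1, Rps12 and Rplp0 led the genes that gained weight in MZ. The ratio of Rplp1 to the geometric mean was 2.37, 2.27 and 2.32 in FO, 2.54, 2.34 and 2.28 in BDL and 3.07, 3.07 and 2.99 in MZ. MZ was separate, and FO and BDL overlapped. Its relative MZ minus FO difference was 0.39 ± 0.06 (SE, adjusted p = 0.000969). For Rps12 the ratio was 1.66, 1.68 and 1.74 in FO, 1.95, 1.85 and 1.88 in BDL and 2.24, 2.21 and 2.18 in MZ, 3 groups without overlap and a difference of 0.38 ± 0.05 (adjusted p = 0.000532). The other members relatively lower in FO were Rpl36a, Rpl22l1, Rps18, Rpl32, Rps26, Rpl27a and Rpl3.

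Fau lost weight outside FO. Its ratio was 1.72, 1.68 and 1.63 in FO, 1.41, 1.41 and 1.33 in BDL and 1.25, 1.27 and 1.28 in MZ. The relative FO minus MZ difference was 0.40 ± 0.05 (adjusted p = 0.000478), and the BDL minus FO one -0.28 ± 0.05 (adjusted p = 0.0207). As deposited, without this scaling, its differences were 0.01 (FO minus MZ) and -0.03 (BDL minus FO). Rps19 followed, at a ratio of 1.36 ± 0.0244 (SD, n = 3) in FO, 1.16 ± 0.015 in BDL and 1.19 ± 0.00408 in MZ, with a BDL minus FO difference of -0.22 ± 0.05 (SE, adjusted p = 0.0323). Rpl7, Rps24, Rpl8, Rpl13a, Rps4x and Rpl5 were the other members relatively higher in FO than in MZ.

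In BDL minus FO, Rps27l remained higher relative to the family by 0.35 ± 0.07 (adjusted p = 0.0275), and Fau and Rps19 were relatively lower, 3 calls beside 2.42% of all rows called higher and 3.63% lower. In BDL minus MZ, 7 members were relatively higher and 9 lower, beside 30.3% and 7.43% of all rows. Rpl7 was the highest of these at 0.32 ± 0.06 (adjusted p = 0.00456), with Rps27l, Rps4x, Rpl4, Rpl5, Rps3a1 and Rpl6. Rplp1 was the lowest at -0.35 ± 0.06 (adjusted p = 0.00201), with Rps18, Rps21, Rpl22l1, Rps12, Rpl32, Rpl13, Rpl36a and Rpl27a.

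**Figure D5:**
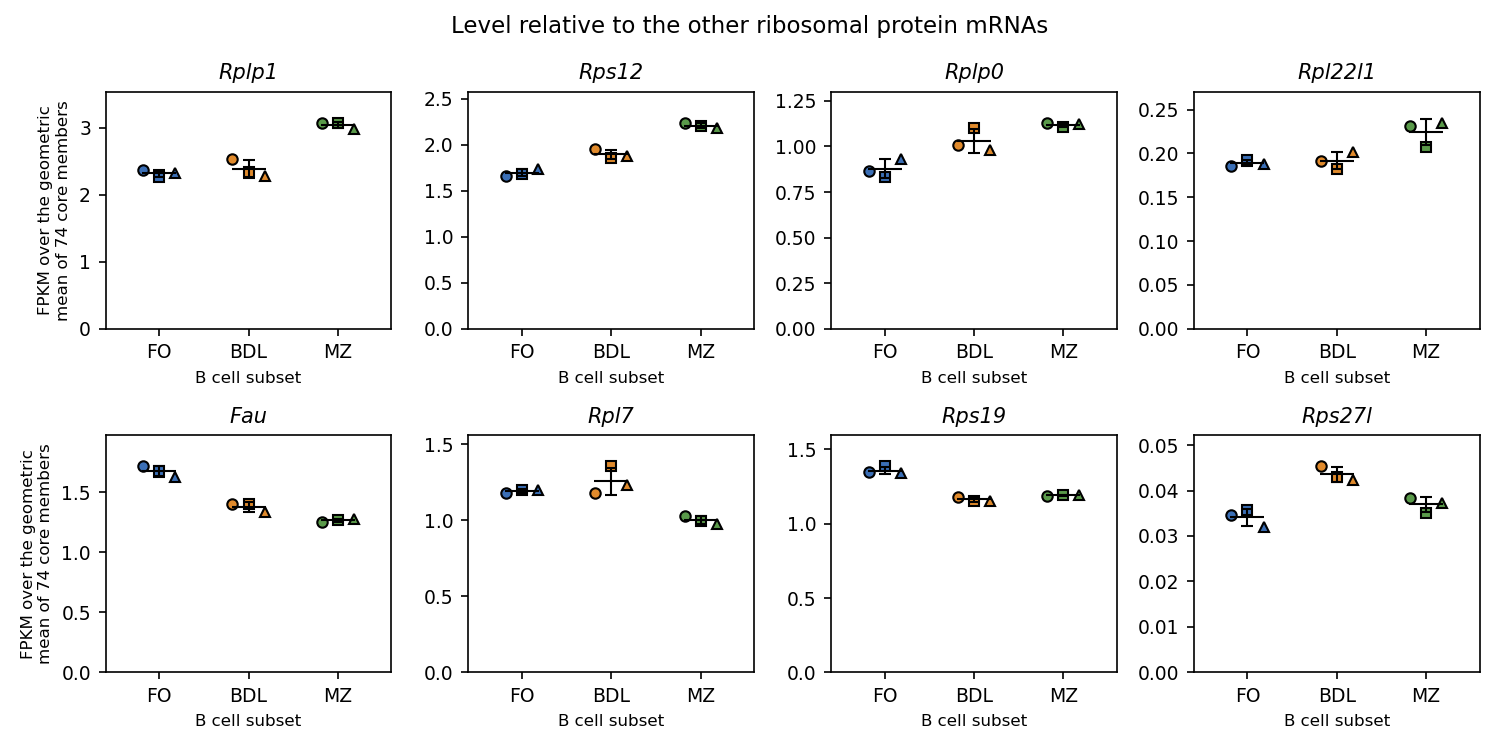
FPKM of 8 members divided by the geometric mean of 74 core members of the same library, by subset; points are libraries with the symbol giving the replicate number (circle 1, square 2, triangle 3), dashes means and error bars SD (n = 3). Rplp1 is highest in MZ (2.99 to 3.07), Fau highest in FO (1.63 to 1.72) and Rps27l highest in BDL (0.0423 to 0.0453).

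The counts for genes that work with the ribosome stand beside those of all tested rows, of which 6.04% were called higher and 1.68% lower in BDL minus FO, 16.5% and 11.6% in BDL minus MZ, and 12.8% and 14.3% in FO minus MZ. Differences between these lists were not tested. Of 22 other TOP mRNA genes, 0 were called in BDL minus FO, with a median of 0.35. In FO minus MZ 3 were called lower (13.6%) and 1 higher, with a median of -0.26. Eef1b2, an exchange factor of elongation factor 1, was listed at 144, 140 and 158 FPKM in FO and 231, 280 and 216 in MZ, a MZ minus FO difference of 0.71 ± 0.13 (adjusted p = 0.00447). Npm1, the nucleolar chaperone nucleophosmin, was higher in MZ by 0.70 ± 0.19 (adjusted p = 0.0257). Nap1l1, a histone chaperone with a TOP mRNA, went the opposite way, at 208, 230 and 252 in FO and 136, 160 and 132 in MZ (FO minus MZ 0.69 ± 0.17, adjusted p = 0.0191).

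Of 35 initiation factors, 3 (8.57%) were called higher in BDL than in FO, 5 (14.3%) higher in BDL than in MZ, and 2 (5.71%) lower in FO than in MZ, with medians of 0.35, 0.24 and -0.08. Eif5a, which relieves stalled peptide synthesis, was listed at 179, 185 and 186 FPKM in FO and 277, 345 and 245 in BDL, a difference of 0.64 ± 0.15 (adjusted p = 0.0364). Of 12 elongation and termination factors 1 was higher in BDL than in FO, 0 were called in BDL minus MZ and 2 were lower in FO than in MZ (medians 0.33, -0.02 and -0.37).

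Ribosome biogenesis factors included 97 tested genes. In BDL minus FO 17 were called higher, 17.5% of the list, and 0 lower (median 0.23). In BDL minus MZ 24 were higher (24.7%) and 2 lower (2.06%), with a median of 0.17. In FO minus MZ 7 were higher (7.22%) and 17 lower (17.5%), the latter near the share of all rows (median -0.08). Nhp2 and Gar1, subunits of the particle that places pseudouridines in ribosomal RNA, led in BDL. Nhp2 was at 16.1, 15.2 and 16.9 FPKM in FO and 27.7, 32.5 and 25.1 in BDL (0.82 ± 0.11, adjusted p = 0.00404), and Gar1 differed by 0.75 ± 0.11 (adjusted p = 0.00619). Rrp1b, a nucleolar factor of large-subunit maturation, was at 3.44, 3.74 and 3.62 in FO and 7.36, 7.82 and 6.81 in MZ (1.004 ± 0.08, adjusted p = 5.37e-05). Tcof1, which supports transcription of ribosomal RNA genes, was higher in FO than in MZ by 0.63 ± 0.14 (adjusted p = 0.012).

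Among 22 tested mTORC1 components and regulators of TOP mRNAs, 3 were higher (13.6%) and 0 lower in BDL than in FO, 4 higher (18.2%) and 1 lower (4.55%) in BDL than in MZ, and 4 higher (18.2%) and 3 lower (13.6%) in FO than in MZ. Pdcd4, a repressor of the helicase EIF4A, was at 43.0, 45.7 and 52.3 FPKM in FO and 86.8, 106 and 91.7 in MZ (1.01 ± 0.13, adjusted p = 0.000611). Larp1, the TOP mRNA binding protein, was higher in MZ by 0.45 ± 0.08 (adjusted p = 0.00329). Eif4ebp1, a repressor of cap-dependent translation, was lower in MZ than in BDL by 0.92 ± 0.09 (adjusted p = 0.000165).

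The MYC and p53 list held Myc, its antagonist Mxd4 and the p53 target Cdkn1a. Of 7 tested, 1 was called higher in BDL than in FO, 2 lower in BDL than in MZ, and 2 higher and 2 lower in FO than in MZ. Myc was listed at 121, 116 and 141 FPKM in FO, 109, 102 and 106 in BDL and 380, 518 and 390 in MZ. MZ was separate from both others, with a MZ minus FO difference of 1.76 ± 0.14 (adjusted p = 4.15e-05) and a BDL minus MZ difference of -2.01 ± 0.14 (adjusted p = 2.67e-05). Mxd4 was at 23.1, 24.8 and 21.3 in FO, 35.2, 40.7 and 36.6 in BDL and 58.9, 71.0 and 60.8 in MZ, in 3 groups without overlap. Cdkn1a, at low levels, was at 1.02, 1.29 and 2.05 in FO, 0.552, 0.465 and 0.882 in BDL and 0.181, 0.103 and 0.475 in MZ (FO minus MZ 2.23 ± 0.43, adjusted p = 0.00566). Mdm2 was also higher in FO than in MZ, by 0.32 ± 0.08 (adjusted p = 0.0213). Rps27l, described above as p53-inducible, was lower in FO.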

How the data were processed

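RNA-seq was analysed from 9 libraries of sorted splenic B cells. Per the submitters' notes and methods, the authors aligned reads with TopHat2 2.1.0 to mm9 and deposited 1 FPKM per gene and library, computed with Cufflinks, whose version and annotation are not given in the sources used here. The labels call the libraries unstranded and single end, whereas the methods name a stranded kit. The authors' Cuffdiff columns (fold changes and p-values) were not used. No counts are given. Steps between low values of genes with 1 transcript of at least 3000 nt put the depth near 54300000 to 71800000 fragments per library, an approximate figure. Columns sum to 446033 to 517208 FPKM.

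Values were analysed as log2(FPKM + 0.1), so that fold changes of low genes are understated. All 11597 rows that averaged 0.5 FPKM or more were tested, two-sided, with limma 3.58.1 in R 4.3.3 (eBayes with a trend, subset as the only term, 9 libraries in 1 fit), with Benjamini-Hochberg adjustment over all of them and a threshold of 0.05. An adjusted p is from this fit unless the text names another option (libraries left out, the date as a block, members summed with copies, or the scale relative to the members), where the same test was refitted. The fit was tested on simulated data.

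Replicate numbers follow the dates in the sample titles, which the subsets share, and this pairs the libraries by label. Deviations of same-date libraries from their subset means correlated across 11597 rows at -0.062 to 0.147 for BDL and FO, 0.1 to 0.244 for BDL and MZ and 0.008 to 0.024 for FO and MZ. Whether a date marks a batch of sorting or of sequencing is not stated.

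Gene positions and coding sequences came from NCBIM37 with GENCODE M1, compared with blastn 2.17.0, and promoters from RefSeq on GRCm38.p6. Rpl41 had no position in GENCODE M1. Plots used matplotlib 3.10.9 under Python 3.11.15. Named were the 5 members with the largest called differences in each direction per comparison, the 5 highest and 5 lowest, the paralogues, stalk and 5S members, Rps6, Rps19, Rpsa and Fau, members at 2-fold or more, the 3 most variable, and 2 genes per direction of the related lists, of which the text gives a part; others were chosen after their values were seen. The members and lists were chosen with earlier results of these data known. As a check of the sort, B cell markers summed to 3285 to 4577 FPKM in every library. Myeloid markers were at 2.69 to 12.6, NK cell markers at 2.50 to 12.5 and plasma cell markers at 128 to 296, and FO markers at 1227 to 1579 in FO and BDL against 372 to 490 in MZ. Some items are not reported here.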

Additional observations from a re-analysis of the deposited data

How the results depend on the processing

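The median difference of the members lay above 0 in BDL minus FO and below 0 in FO minus MZ in every alternative run apart from the scale relative to the members, which centres the family. In BDL minus MZ the members split nearly evenly in 2 alternatives, with 45 of 81 below 0 under quantile normalization and 43 without MZ replicate 2. The number of members called was unstable. Leaving out 1 library at a time gave 0 to 4 members called in BDL minus FO, 0 to 2 in BDL minus MZ and 6 to 33 in FO minus MZ. The 33, without BDL replicate 2, were 40.7% of the members beside 17.2% of all rows. In BDL minus FO, the count of 1 became 4 with a replicate block for the date, 12 without BDL replicate 2 and MZ replicate 2, 2 without replicate 2 of all subsets, 3 on the scale relative to the members and 0 at 2-fold. In BDL minus MZ, the count of 2 became 1 with a constant of 0.01 or 1 or with no minimum, and 0 with only the 6 libraries compared. It was 5 with the replicate block or with eBayes without a trend. Upper quartile scaling gave 14, which is 17.3% of the members, near the 15.9% of all rows called lower. Median of ratios scaling gave 4 (4.94% beside 13.3%). The count was 10 without BDL replicate 2 and MZ replicate 2 and 1 without replicate 2 of all subsets. It was 16 relative to the members and 0 at 2-fold. In FO minus MZ, the count of 27 became 9 with no minimum, 14 with 6 libraries, 13 with quantile normalization (12 of them shared) and 0 at 2-fold. The replicate block gave 36 and leaving out BDL replicate 2 and MZ replicate 2 gave 40. These FO minus MZ counts of 9, 14 and 13 were near the share of all rows called lower. The BDL minus MZ median of -0.13 became -0.080 when libraries were scaled to their sum, -0.23 with upper quartile, -0.17 with median of ratios and -0.015 with quantile normalization, and lay between -0.25 and -0.012 with 1 library left out. Quantile normalization also took the FO minus MZ median from -0.38 to -0.16 (61 of 81 below 0) and the BDL minus FO median from 0.27 to 0.14. Scaling to the summed FPKM moved the median of all rows by 0.11 in FO minus MZ and by 0.05 in BDL minus MZ. Of all rows called, the share called higher was 78.2% in BDL minus FO, 58.6% in BDL minus MZ and 47.2% in FO minus MZ. It was 61.9% to 66.5% in BDL minus FO under sum, upper quartile, median of ratios or quantile scaling, 44.0% in BDL minus MZ under upper quartile scaling and 63.5% in FO minus MZ when scaled to the sum. The cause of these changes was not tested. All 27 values of the difference in the summed share under alternatives changed by less than 1 SD. With 3 libraries per subset, leaving out 1 cannot move the mean of its subset by 1 SD, so this count does not show that the share is stable. Of 2184 values for single named members, 2081 kept their side of the threshold, 34 gained a call and 69 lost it. Precision was limited by 3 libraries per subset, by the spread of replicate 2, and for genes with copies by the placement of reads.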

Other observations

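Mitochondrial ribosomal proteins, which are made in the cytosol and build the separate ribosome of mitochondria, give a contrast that was chosen after the values were seen. Of 77 tested genes with symbols in Mrpl or Mrps, 4 were called higher in BDL than in FO (5.19% beside 6.04% of all rows) and 0 lower, with a median of 0.30. In BDL minus MZ 13 were higher and 0 lower, with a median of 0.23, beside a median of -0.13 in the cytosolic family. The 13 are 16.9% of the list, close to the 16.5% of all rows called higher, and the difference between the families was not tested. In FO minus MZ 2 were higher and 4 lower, with a median of -0.05. Mrpl52 was at 54.5, 57.8 and 64.9 FPKM in FO and 91.7, 112 and 86.8 in MZ (0.71 ± 0.15, adjusted p = 0.00853), and Mrpl38 at 16.1, 16.6 and 15.04 in FO and 9.75, 10.2 and 9.72 in MZ (FO minus MZ 0.67 ± 0.09, adjusted p = 0.000635). Mitochondrial ribosomal proteins moved by a median of 0.22 in BDL replicate 2 and 0.27 in MZ replicate 2, and the other TOP mRNA genes by 0.40 and 0.37.

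Gnb2l1, which encodes the ribosomal scaffold RACK1, lies outside the naming rule. It was listed at 796, 764 and 754 FPKM in FO, 931, 1063 and 888 in BDL and 946, 1159 and 895 in MZ.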
